A study of Drosophila melanogaster with 66 samples.

Results

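CLAMP-bound regions of female embryos aged 2 to 4 h were set against the regions that carried acetylation of histone H4 at lysine 16 (H4K16ac) in female embryos of the same age. The members were all regions of these 2 peak lists, 10435 for CLAMP and 7935 for H4K16ac, or 18370 of the 124393 regions in the 25 lists of the series. A CLAMP region was called inside when it shared at least 1 bp with an H4K16ac region, near when the gap was at most 1000 bp, and far when it was longer. Classes were counted on the X chromosome and on the autosome arms 2L, 2R, 3L and 3R, which held 10265 CLAMP and 7772 H4K16ac regions.

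The series measured CLAMP, H4K16ac and, in males, MSL3 by chromatin immunoprecipitation and sequencing in sexed Drosophila melanogaster embryos. Stages were nuclear cycles 11, 12, 13 and 14 and an age of 2 to 4 h. Embryos of 1 sex came from meiotic drive crosses, in which sperm with a sensitive Responder allele are lost. Fathers of the female embryos carried the Y duplication Dp(2:y)CB25-4 with y+ and Rsp[s]B[s], over a wild-type X, and were SPSD over SD72. Fathers of the male embryos carried an X labelled 19-3 with yw and Rsp[s]-B[s], beside a Y, and were SPSD over SD72 too. Mothers of both sexes were yw with the PCNA-EGFP transgene at attP2, so both groups share that background and differ in the father's sex chromosomes as well as in sex. Embryos were pooled whole, so a region can come from any cell type of the embryo, fewer marked cells and a weaker mark per cell cannot be told apart, and a list does not tell whether both marks lay on the same chromatin fibre.

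CLAMP binds GA-rich DNA through its zinc fingers on every chromosome and helps the male-specific lethal (MSL) complex find the male X. H4K16ac is made by the acetyltransferase Mof. In males Mof works within the MSL complex over the bodies of active X genes, and in both sexes within the non-specific lethal complex at promoters of many active genes. Females make no MSL complex because Sex-lethal blocks translation of msl-2, so their H4K16ac is made without it.

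The fold enrichment of a region over its local background, as given by the authors' peak caller, had a median of 4.03 for CLAMP and 1.902 for H4K16ac. CLAMP regions had a median width of 569 bp and H4K16ac regions of 1210 bp. Each sex and stage had 1 list per target, so no value below has a replicate error and no difference was tested. Read depth was unknown. Intervals are exact 95% intervals (Clopper-Pearson for shares, order statistics for medians) and cover counting error only.

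On X, 1070 of 2149 CLAMP regions lay inside H4K16ac, which is 49.8% (95% interval 47.7 to 51.9). On the autosome arms 4843 of 8116 did, which is 59.7% (58.6 to 60.7). Over both, 57.6% of CLAMP regions were inside, 6.82% within 1 kb and 35.6% far. Near regions made up 7.07% on X and 6.75% on the autosome arms, and far regions 43.1% (41.03 to 45.3) on X and 33.6% (32.5 to 34.6) on the autosome arms. H4K16ac regions covered 8.60% of X and 8.02% of the autosome arms, so the marked share of the sequence was alike on both. The share of CLAMP regions inside it, X minus autosome arms, was -9.88 percentage points. The 4 autosome arms lay between 57.5% (3L) and 62.8% (2R) inside, all above X.

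The count per Mb shows where the chromosomes parted. Inside regions were as dense on X as on the autosome arms, at 45.5 and 44.5 per Mb, a ratio of 1.02. Far regions were denser on X, at 39.4 per Mb against 25.1 per Mb on the autosome arms, a ratio of 1.57. Near regions lay between these, with a ratio of 1.28. With regions of every fold counted, CLAMP density was higher on the female X than on the autosome arms, by a ratio of 1.22. This excess lay almost wholly outside H4K16ac. It did not do so for strong regions alone. At a fold of 8 or more, 163 inside regions lay on X (23.5 Mb) and 570 on autosomes (108.8 Mb). Far regions of that fold numbered 120 on X and 360 on autosomes. Strong regions were thus denser on X in both of these classes. In the male lists of the same age, with every fold counted, the far ratio was 1.29 and the inside ratio 0.916. Male embryos carry a single X and female embryos a pair, so X values of the sexes may not be like for like. This was not tested. Without the repeat-rich ends of the arms the female ratios were 1.59 for far and 0.998 for inside regions.

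**Figure D1:**
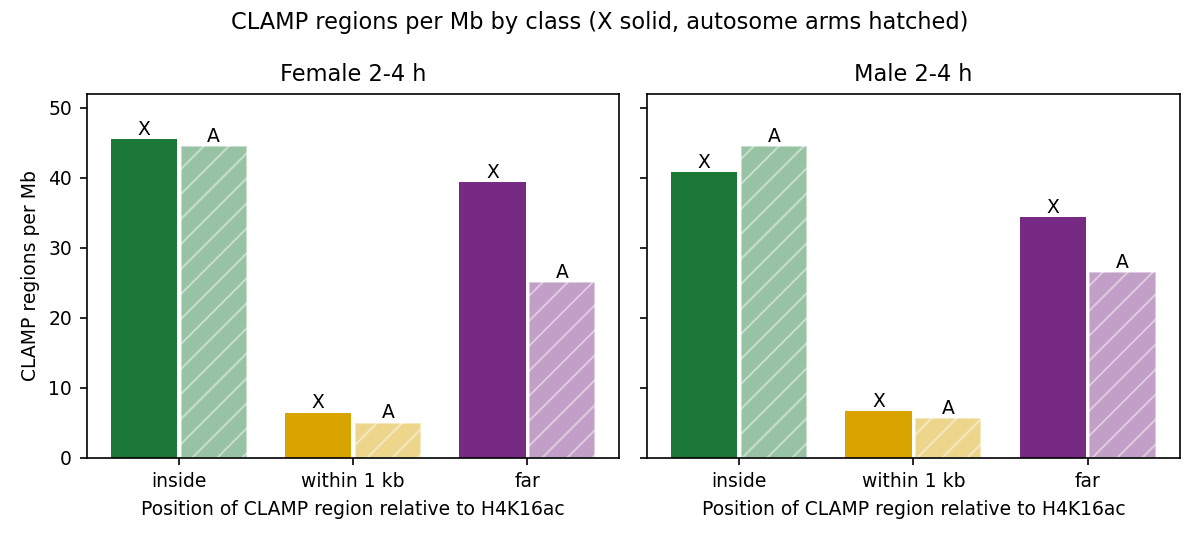
CLAMP regions per Mb (vertical axis) inside, within 1 kb of and far from H4K16ac, for X (solid bars, X) and the autosome arms (hatched bars, A), in the female and the male 2-4 h lists. In females the inside bars are level at 45.5 and 44.5 per Mb, while the far bar of X reaches 39.4 per Mb against 25.1 per Mb on the autosome arms.

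Inside regions were stronger and wider than far ones. Their median CLAMP fold enrichment was 4.67 (4.51 to 4.90) on X and 4.35 (4.28 to 4.44) on the autosome arms, and that of far regions was 3.64 (3.50 to 3.78) on X and 3.66 (3.58 to 3.74) on the autosome arms. Near regions had the lowest medians, 3.42 on X and 3.19 on the autosome arms. Median widths were 686 bp inside and 469 bp far on X, and 649 bp inside and 477 bp far on the autosome arms. More than 1 summit was listed in 288 of 1070 inside and 75 of 927 far regions on X, and in 1012 of 4843 inside and 192 of 2725 far regions on the autosome arms. A wider region meets another list more easily at 1 bp. Judged by the strongest summit alone, H4K16ac held 38.4% of CLAMP regions of X and 46.7% of those of the autosome arms.

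The regions closest to the boundary between near and far were as follows. The longest gaps kept as near were 997 bp on 2L, at a CLAMP fold of 3.38, and 995 bp on 2R, at a fold of 2.31. The shortest gaps called far were 1002 bp on X, at a fold of 2.70, and 1003 bp on 3R, at a fold of 2.74. The far class had a median gap of 8710 bp on X and 7115 bp on the autosome arms.

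**Figure D2:**
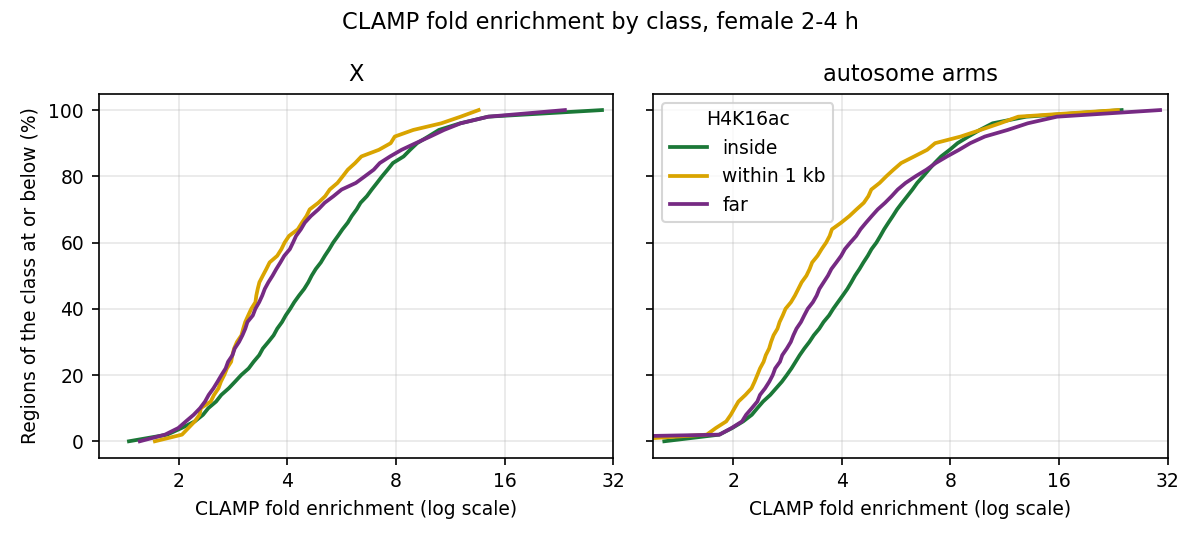
Share of regions (vertical axis, percent) at or below each CLAMP fold enrichment (horizontal axis, log scale) for regions inside, within 1 kb of and far from H4K16ac, on X and on the autosome arms; 2 regions with a fold below 1 lie left of the axis. The inside curve lies to the right up to about 8-fold, with medians of 4.67 on X and 4.35 on the autosome arms, and the far curve crosses to its right or meets it above that.

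The relation between strength and class was not a steady one. On the autosome arms 55.0% of regions with a fold under 2 and 49.2% of those with a fold of 2 to 3 were inside. The share was 72.3% at a fold of 6 to 8 and 37.1% (33 of 89) at 16 or more. Of these 89 strongest autosomal regions 60.7% (49.7 to 70.9) were far, and some of these are repeated genes of uncertain fold, named below. On X the inside share was 37.0% at a fold of 2 to 3, 63.8% at 6 to 8 and 54.2% (13 of 24) at 16 or more. Among the 3000 CLAMP regions of highest fold the order of the medians turned: the ratio of inside to far was 0.922 on X and 0.890 on the autosome arms, against 1.28 on X and 1.19 on autosomes over all regions. Hence moderately enriched CLAMP regions lay inside most often, and the strongest autosomal ones were more often far than inside.

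**Figure D3:**
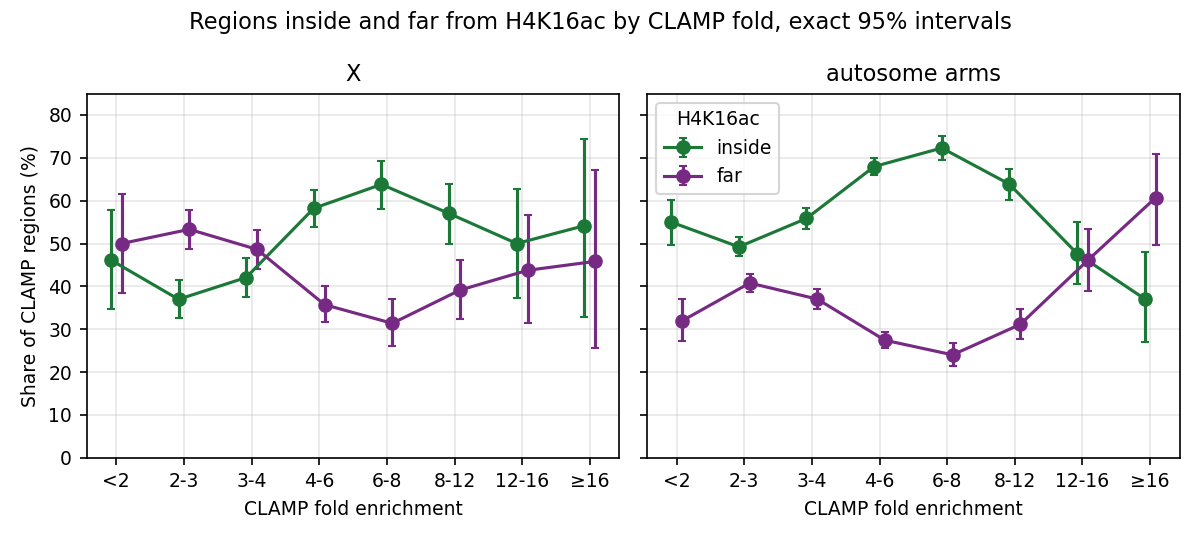
Share of CLAMP regions (vertical axis, percent) inside and far from H4K16ac in 8 bins of CLAMP fold enrichment (horizontal axis), on X and on the autosome arms, with exact 95% intervals as bars. The inside share peaks at a fold of 6 to 8, with 63.8% on X and 72.3% on the autosome arms, and on the autosome arms the far share passes it above 16-fold.

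Inside regions often crossed an edge of the H4K16ac region. Of them, 54.0% of those on X and 56.5% of autosomal ones were wholly contained in H4K16ac, and the strongest summit was acetylated in 77.2% on X and 78.2% on autosome arms. From a summit that lay in H4K16ac, the median distance to the nearer edge was 562.5 bp on X and 562 bp on the autosome arms, or 31.6% on X and 31.8% on the autosome arms of the width of the H4K16ac region, where 50% is its centre. CLAMP fold tended to be higher where the H4K16ac region it met had a higher fold. The relation was weak, with a Spearman rank correlation of 0.145 on X and 0.274 on the autosome arms. On X the median CLAMP fold was 4.16, 4.55 and 5.07 in the lowest, middle and highest tercile of H4K16ac fold. The autosomal medians were 3.55, 4.20 and 5.22.

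The classes also differed in where they stood relative to genes. Gene coordinates carried no strand, so a gene end here is either annotated end of a protein-coding gene. The strongest summit lay within 500 bp of a gene end in 642 of 1070 inside regions on X and in 15.6% of far regions on X (13.4 to 18.1). The autosomal shares were 64.2% (62.9 to 65.6) inside and 545 of 2725 far. Median distances to the nearest end were 180.5 bp inside and 4470 bp far on X, and 123 bp inside and 3929 bp far on the autosome arms. Of far regions, 60.9% on X and 48.1% on autosome arms stood within a gene body past 500 bp from its ends. Near regions were between the other two classes, with 31.6% on X and 22.4% on the autosome arms within 500 bp of an end.

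Of the H4K16ac regions, 34.2% held no CLAMP region. The share was 33.9% (31.4 to 36.5) on X, 474 of 1397, and 34.3% (33.1 to 35.4) on the autosome arms, 2184 of 6375. Thus X and the autosome arms were alike on this side of the comparison. Regions with CLAMP had a median H4K16ac fold of 2.06 and a width of 1531 bp on X, against a fold of 1.65 and 805 bp for regions with no CLAMP within 1 kb. For autosomal regions the fold was 2.20 with CLAMP and 1.65 with none within 1 kb, and the width 1432 bp with CLAMP and 778.5 bp with none. Regions with CLAMP held 77.6% of the acetylated base pairs on X and 76.4% on the autosome arms.

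Width and position moved with the presence of CLAMP. Of H4K16ac regions under 500 bp, 63.6% on X and 67.2% on autosome arms had none, and of those of 4000 bp or more 7.69% (2 of 26) on X and 5.68% (5 of 88) on autosome arms. The centre stood within 500 bp of a gene end in 54.6% of regions with CLAMP and 25.5% of regions with none within 1 kb on X, and in 60.9% of regions with CLAMP and 23.6% of those with none on the autosome arms. Most H4K16ac regions with CLAMP held a single CLAMP region, 789 of 923 on X and 3595 of 4191 on the autosome arms, and none held more than 4.

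The strongest H4K16ac regions with no CLAMP within 1 kb mostly overlapped protein-coding genes. On X these genes were mRpL38, a protein of the mitochondrial ribosome, at an H4K16ac fold of 3.09 and 3905 bp from CLAMP, CG14618 at 2.98 and CG9213 at 2.56, and a region nearest to Ir11a at 2.57. Their autosomal counterparts were l(3)80Fg at 5.17, Spindly, a dynein adaptor at the kinetochore, at 5.01, CG10616 at 4.19 and MetRS-m, the mitochondrial methionyl-tRNA synthetase, at 4.10. The widest such regions were 4872 bp wide at cher, the filamin gene, and 4669 bp wide at vtd, which encodes the Rad21 subunit of cohesin. On X they were 4516 bp wide at Ptpmeg2, a tyrosine phosphatase, and 4048 bp wide at zyd. Their folds were 1.58 at cher, 1.63 at vtd, 1.65 at Ptpmeg2 and 1.77 at zyd, around the medians of 1.65 for regions with no CLAMP within 1 kb. The regions at CG14618 and zyd lie past 22 Mb of X, in its repeat-rich end, so their values are less certain. The regions at l(3)80Fg (3L:25971291-25971737) and vtd (3L:27145944-27150612) stand toward the base of 3L, and the same caution applies to them.

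Other female lists of the series, which the classes did not use, held H4K16ac at most inside regions from cycle 11 on. The male cycle 11 H4K16ac list met only 9.44% of inside X regions and 15.3% of autosomal ones. It covered 0.325% of X and 0.610% of the autosome arms. In female cycles 11, 12, 13 and 14, H4K16ac regions overlapped 67.7%, 66.1%, 73.7% and 68.4% of inside regions on X, and 58.5%, 63.0%, 70.1% and 65.9% on the autosome arms. At far regions these values were 12.9%, 3.34%, 2.80% and 5.18% on X and 2.31%, 1.43%, 0.881% and 1.06% on the autosome arms. All 4 earlier female H4K16ac lists covered 573 of 1070 inside and 5 of 927 far regions on X, and 2425 of 4843 inside and 0 of 2725 far regions on the autosome arms, which allows a share of up to 0.110% by the limit of 3 counts of the total and 0.135% by the Clopper-Pearson interval. The 12.9% of far X regions met at cycle 11 stand beside a broader mark there, since H4K16ac of that list covered 15.5% of X and 3.23% of the autosome arms. The CLAMP lists of the earlier stages met the classes at more even shares. Female cycle 11 CLAMP, for example, overlapped 57.6% of inside, 51.97% of near and 50.7% of far regions on X, and 43.7%, 44.7% and 39.9% of these classes on the autosome arms.

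**Figure D4:**
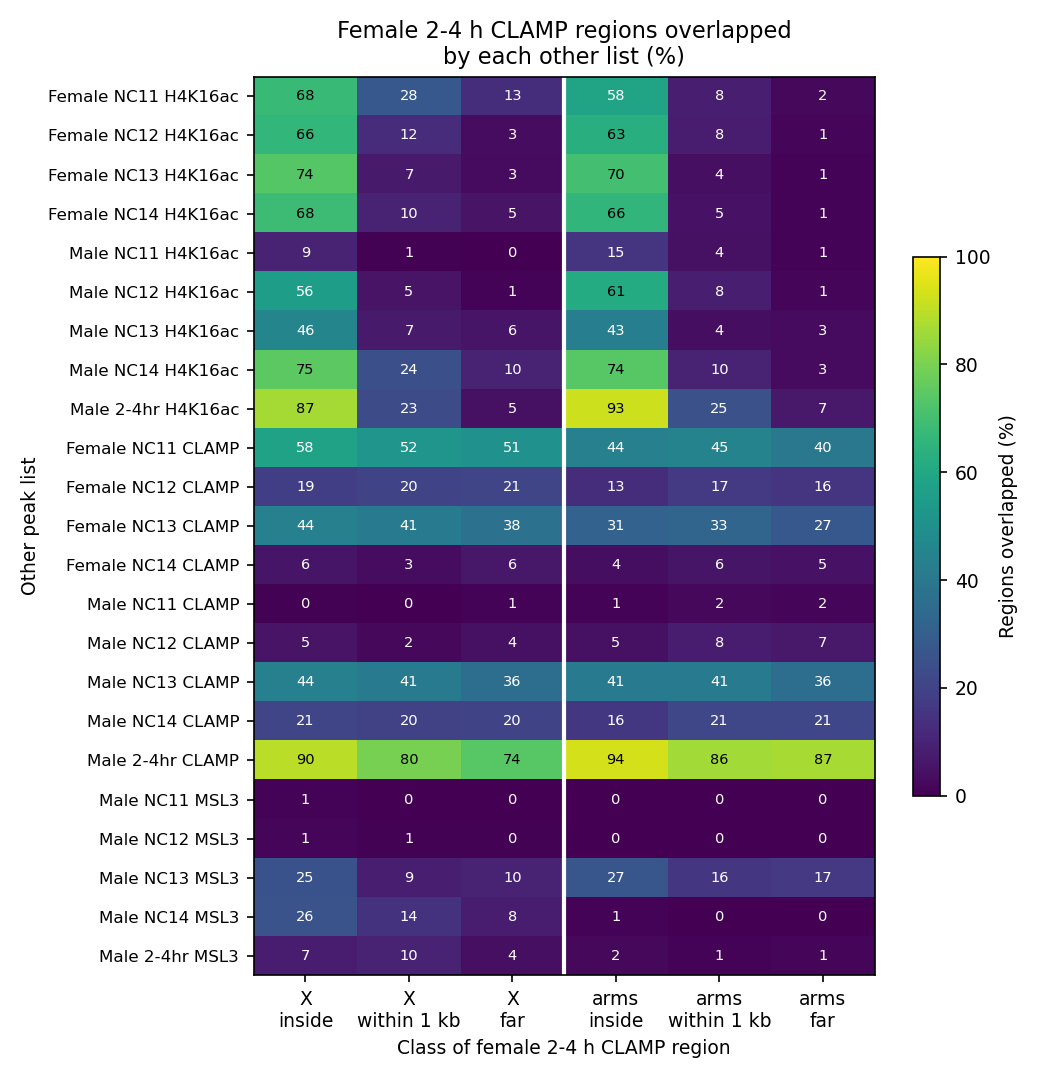
Share (colour and printed number, percent) of female 2-4 h CLAMP regions of each class (columns, X on the left and autosome arms on the right) overlapped by each other peak list (rows, grouped by target, sex and stage). Rows of H4K16ac lists are higher for inside than for far regions, as in female cycle 13 with 73.7% and 2.80% on X. The male cycle 11 H4K16ac row is low in every class, with 9.44% inside and 0.324% far for X. Its autosomal values are 15.3% inside and 0.991% far. Rows of CLAMP lists at cycles 11 to 14 are more level over the classes.

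Most inside and far regions had the same class in male embryos of the same age, and most near regions did not. Near in males were 36.2% of near regions on X and 43.4% of those on autosome arms. Of inside regions on X, 76.9% were inside male H4K16ac too and 10.3% met no male CLAMP region. Of far regions on X, 66.5% were far in the male lists, 3.56% were inside there, 4.10% were near, and 25.9% (23.1 to 28.8) met no male CLAMP region. On the autosome arms 86.1% of inside regions stayed inside, 77.6% of far regions stayed far, and 12.9% (11.7 to 14.2) of far regions met no male CLAMP region. The single X of males may bear on the X shares, which was not tested. The 240 far X regions with no male counterpart were weak, with a median fold of 2.66 (2.54 to 2.74) and a highest fold of 5.16, against 4.27 (4.11 to 4.47) for the 687 far X regions found in both sexes.

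The class shares in the male lists were close to those in females. Inside were 49.8% of female and 49.8% of male CLAMP regions on X, and 59.7% of female and 58.0% of male regions on the autosome arms. Male MSL3 at cycle 13 overlapped 25.2% of inside, 8.55% of near and 9.82% of far regions of the female X list, and 26.6%, 15.9% and 16.8% of these classes on autosome arms. At cycle 14 it overlapped 25.6% of inside, 14.5% of near and 8.09% of far regions of the female X list, and 0.805%, 0.182% and 0.367% of these classes on the autosome arms. At 2 to 4 h male MSL3 met 7.48% (5.97 to 9.22) of inside, 9.87% (5.63 to 15.8) of near and 4.21% of far regions on X. On the autosome arms it met 2.17%, 0.912% and 1.43% of these classes. Inside regions had the highest share of the classes on X in the cycle 13 and 14 lists. At 2 to 4 h near regions had it on X, with an interval that overlaps that of inside regions. X exceeded the autosome arms in the inside share at cycle 14 and at 2 to 4 h, and not at cycle 13.

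In earlier female lists the X did not have a lower share inside at every stage. The difference of X minus autosome arms in the inside share was 4.83 points in cycle 11, -1.01 points in cycle 12, 0.520 points in the cycle 13 lists, -3.22 points in those of cycle 14 and -9.88 points at 2 to 4 h. The cycle 14 value rests on 134 CLAMP regions of X and 389 of the autosome arms. In males it was -14.3, -7.63, -0.222 and 5.46 points in cycles 11, 12, 13 and 14 and -8.20 points at 2 to 4 h; the cycle 11 value rests on 16 CLAMP regions of X. H4K16ac regions without CLAMP were 78.7%, 87.7%, 75.5%, 98.3% and 33.9% on X in the female stages in order of time, beside CLAMP lists of 1395, 490, 1041, 134 and 2149 regions there. The share was highest where the CLAMP list was shortest, so no order of development was read from these shares.

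Among the strongest CLAMP regions of each class, the far ones on X described here stood at or near genes for homeodomain transcription factors. The strongest, at X:17396987-17397694, overlapped an end of B-H1, a Bar homeobox gene of eye and sense organ development, with a fold of 23.5 and a gap of 3635 bp to H4K16ac. Others stood 4845 bp from oc, the head gap gene orthodenticle (21.9), and at unc-4 (21.4). Each of these was far in the male lists too and appeared in 8 of the 9 other CLAMP lists. The 4 near regions on X stood at or next to fz4, a Frizzled receptor gene (13.5), ben, which encodes a ubiquitin-conjugating enzyme (12.9), ENGase (12.6) and brk, a repressor of Dpp targets (12.1).

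The strongest inside regions on X were of another kind. The regions at X:23253268-23253746 (29.7), nearest to 28SrRNA-Psi:CR41609, at pre-rRNA:CR45856 (29.6) and nearest to mir-10404-5 (22.4) stand in the repeat-rich base of X, and they appeared in 1, 3 and 3 of the 9 other CLAMP lists. Ribosomal DNA is repeated there, and reads of repeated sequence cannot be placed uniquely, so these folds are uncertain. The fourth, at CG1998 (22.4), appeared in 8. Autosomal leaders inside were zpg, a germline innexin gene (23.8), cad, the posterior homeobox gene caudal (20.4), Ythdc1, a reader of methylated RNA (20.2), and CG30159 (20.02), and each appeared in at least 7 other lists. Of the cad region 6.32% was covered by H4K16ac, and of the Ythdc1 region 100%.

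The strongest far autosomal regions included repeated genes as well. The highest fold of the CLAMP list, 30.5, was at 2L:21424856-21425356 in His3:CG31613, and the next of the class, 25.02, at His3:CG33866, both of the histone gene cluster. They lay 66253 and 11983 bp from H4K16ac, were far in males too and appeared in 1 of the 9 other lists. Reads of the repeated histone genes cannot be assigned to single copies, and the same holds for lncRNA:alphagamma-element:CR32865 (24.6), a repeated element at a heat shock locus. Nckx30C, which encodes a sodium and calcium exchanger, followed with 24.8 and appeared in 7. Near regions were led by lncRNA:bxd, a noncoding RNA of the bithorax complex (23.3), a region 3842 bp from CG14659 (17.0), SoxN, a neural Sox factor gene (15.3), and mam, which encodes a Notch coactivator (14.9).

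Genes were then grouped by whether a region of either list overlapped the gene or its flanks of 1000 bp. Of 13842 protein-coding genes on X and the autosome arms, 54.9% had both, 5.83% CLAMP alone, 8.9% H4K16ac alone and 30.4% neither. On X 60.2% had both and 24.6% neither, and on the autosome arms 53.9% had both and 31.5% neither. Longer genes meet more regions: both were found at 28.2% of genes under 1000 bp and 72.5% of those of 20000 bp or more, and CLAMP alone at 4.60% of genes under 1000 bp and 15.7% of those of 20000 bp or more. At the 8404 genes with CLAMP, the strongest CLAMP region was inside H4K16ac in 81.5%, near in 3.22% and far in 15.3%. Neighbouring genes can share a region, so genes are not independent.

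Most genes had the same class in the male lists of the same age. Of the 7597 female genes with both, 94.9% had both in males, and of the 807 with CLAMP alone 74.8% had CLAMP alone in males and 14.6% had both. All 4 earlier female H4K16ac lists met 78.0% of the genes with both and 0.867% of those with CLAMP alone. None of the 4 met 73.9% of the genes with CLAMP alone.

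In several lists, some of them of general cell functions, most genes had both marks in the gene or its 1000 bp flanks. All 8 genes of the list of MSL complex, roX and CLAMP genes had both, with the strongest CLAMP region inside: their CLAMP folds were 10.4 at lncRNA:roX2, 9.73 at Clamp, 8.13 at mle (the helicase), 6.91 at lncRNA:roX1, 6.76 at msl-1, 6.72 at msl-3, 5.52 at msl-2 and 3.66 at mof. Both were found at 30 of 31 proteasome genes, 82 of 84 cytoplasmic and 67 of 73 mitochondrial ribosomal protein genes, against 54.9% of all protein-coding genes. The strongest CLAMP region was inside H4K16ac at 30 proteasome, 80 cytoplasmic and 65 mitochondrial ribosomal protein genes. All 17 Polycomb group genes on the arms, which encode repressors of Hox genes, had both, led by Psc (13.6) and Su(z)2 (13.5). Of 14 cell cycle genes of the mid-blastula transition 13 had both, among them dap (10.5) and stg (10.4), an inhibitor of Cdk and the phosphatase that activates it. The other one, twe, had H4K16ac alone. Median spans were 5221 bp for Polycomb group and 3955.5 bp for cell cycle genes. Both were found at 64.0% of protein-coding genes of 2000 to 5000 bp and 71.8% of those of 5000 to 20000 bp.

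Many genes that pattern the embryo had strong CLAMP without H4K16ac. Gap genes, the first zygotic regulators along the body axis, had CLAMP alone at 6 of 9 and both at 3 of 9, and pair-rule genes, the next tier, had the same counts. The background of CLAMP alone was 5.83% of protein-coding genes. CLAMP was strong at them, with a median fold of 13.8 at gap and 10.8 at pair-rule genes against 5.11 over all protein-coding genes with CLAMP, while H4K16ac where present was weak (median 1.59 at gap and 1.65 at pair-rule genes, against 2.29 over all genes with it). The strongest CLAMP region was far at 8 of 9 gap and 6 of 9 pair-rule genes. Among gap genes, ems reached 20.8, oc 19.1, btd 15.99 and gt 13.9, of which oc had both. Among pair-rule genes, slp2 reached 15.4, opa 14.5, slp1 12.7 and run 11.0, of which opa had both.

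Counts in the male lists were much the same. CLAMP alone was found at 7 of 9 gap and 6 of 9 pair-rule genes in the male lists. None of the 9 gap genes and none of the 9 pair-rule genes met all 4 earlier female H4K16ac lists, and 5 gap and 4 pair-rule genes met none of them. Of all protein-coding genes 45.3% met all 4 lists and 35.6% none, so the counts that met none are near the background. Median gene spans were 3049 bp for gap and 2533 bp for pair-rule genes, and 64.0% of protein-coding genes of 2000 to 5000 bp had both and 4.53% CLAMP alone.

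Of 8 Hox genes, which give segments their identity, 7 had both and Dfd had CLAMP alone (fold 20.2). Their median span was 30563 bp, and 72.5% of protein-coding genes of 20000 bp or more had both. The strongest CLAMP region was far at Abd-B (22.3), lab (15.1), pb (10.2), Antp (10.2) and Scr (8.70) as well, and inside at Ubx (17.6) and abd-A (14.1). In all it was far at 6 of 8 Hox genes, against 15.3% of all protein-coding genes with CLAMP. That background was not matched for span, whose median over all protein-coding genes was 2151 bp. A long gene can hold more regions, so the far count cannot be told apart from gene length. Of 11 segment polarity genes 9 had both, and the strongest CLAMP region was inside at 6 and far at 5. The 4 of highest fold, inv (18.2), wg (17.9), gsb (16.6) and hh (15.3), were all among the 5 far ones.

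Of 18 dorsal-ventral patterning genes 11 had both, 6 CLAMP alone and bap neither. Their count with both is near the 54.9% of all protein-coding genes; of those of 5000 to 20000 bp, 71.8% had both and 8.10% CLAMP alone, and the median span of the list was 11743.5 bp. The highest CLAMP folds were at twi (17.4), the mesoderm determinant, sim (15.2), pnr (13.1) and tup (12.4), and of these only twi had its strongest region inside. Among the X-signal elements, which count X chromosomes for sex determination, run (11.0), upd1 (10.8) and sisA (3.66) had CLAMP alone. Both were found at sc (12.3) and at their target Sxl (4.04), and sc had CLAMP alone in males. Of 5 pioneer and GA-binding factor genes all had both: opa (14.5), psq (12.9), Clamp (9.73), zld (9.01) and Trl (4.73). The Enhancer of split complex, a cluster of Notch targets whose small genes share regions, had both at 5 of 12 genes, CLAMP alone at 5 and H4K16ac alone at 2. First-wave zygotic genes had both at 10 of 12, with nullo and term at CLAMP alone. The background was 54.9% for both, 5.83% for CLAMP alone and 8.9% for H4K16ac alone. Both marks were found at 9 of 10 insulator protein genes, with ZIPIC at H4K16ac alone, and at 6 of 8 genes of histone variants and the histone locus body, with cid and Lsm11 at H4K16ac alone. These 5 genes, bap, twe and v are named for their class after their values were seen.

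Receptor and cuticle genes, which work in late tissues, had fewer of either mark. Odorant and gustatory receptor genes had neither at 84 of 119 and both at 15, and cuticle protein Cpr genes had neither at 47 of 70 and both at 8. The background of neither was 30.4% of all protein-coding genes. It was 35.7% of those of 1000 to 2000 bp and 57.0% of shorter ones. Median spans were 1444 bp for receptor and 1093.5 bp for Cpr genes. Photoreceptor genes had neither at 6 of 10. Muscle genes (median span 11355 bp) had CLAMP alone at 4 of 9 and both at 4. Of protein-coding genes of 5000 to 20000 bp, 71.8% had both and 8.10% CLAMP alone. Neuronal genes (median span 31982.5 bp) had both at 7 of 10, near the 72.5% of genes of 20000 bp or more. Among them para, a sodium channel gene of X, had a CLAMP fold of 15.8. Classic dosage-compensated X genes (median span 7557 bp) had both at 9 of 12, led by ct (14.2) and w (13.1), while B-H1 (23.5) and v had CLAMP alone. That count is near the 71.8% of protein-coding genes of 5000 to 20000 bp, and 60.2% of X genes had both. The strongest CLAMP region of ct was far, and ct had CLAMP alone in males. Transfer RNA genes had CLAMP alone at 34 and both at 115 of 295, and microRNA genes had CLAMP alone at 27 and both at 59 of 258. Neither was found at 105 transfer RNA and 148 microRNA genes. The strongest CLAMP region was far at 25 transfer RNA and 18 microRNA genes, so some with CLAMP alone had it inside or near. Median spans were 73 bp for transfer RNA and 92 bp for microRNA genes, against 1700 bp for all annotated genes. Both were found at 28.2% of protein-coding genes under 1000 bp, so these counts cannot be told apart from gene length. Of all 17570 annotated genes on these arms, 55.6% had CLAMP, 6.55% CLAMP alone, 49% both, 8.88% H4K16ac alone and 35.5% neither. Copies of a transfer RNA gene can be near-identical, so the values at transfer RNA genes are uncertain.

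**Figure D5:**
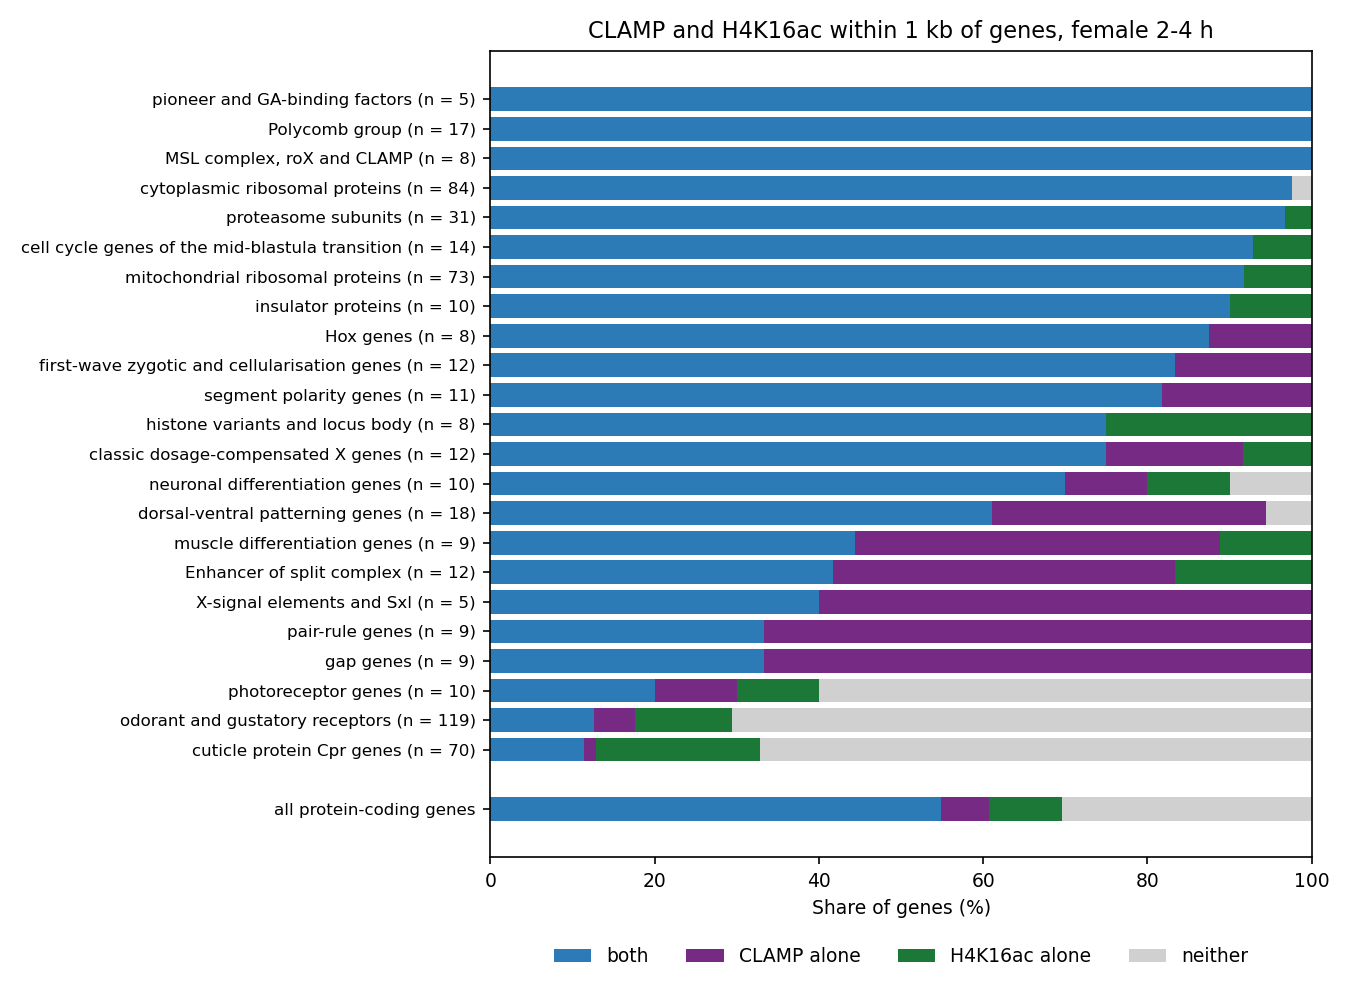
Share of genes (horizontal axis, percent) with both marks, CLAMP alone, H4K16ac alone and neither within 1 kb, for 23 lists of genes with their sizes, and for all protein-coding genes in the lowest bar. Gap and pair-rule genes have the widest CLAMP alone segment (6 of 9 each), and proteasome and ribosomal protein genes are nearly all both.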

How the data were processed

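Peak lists of 2 to 4 h female embryos were used as members, and the other 23 lists as readouts. Per the submitters' processing notes, Bowtie2, Picard, SAMtools 1.9, MACS2 2.1.1 and the build dm6 were used; order, settings, control library and pooling of replicates are not given in the sources used here. Lists of CLAMP are narrow and H4K16ac and MSL3 lists broad. The authors deposited for each peak a fold enrichment (a ratio to local background), a −log10 p-value and −log10 q-value, and a score derived from q. The authors also deposited summit offsets in base pairs in the narrow lists. The lowest −log10 q was 2.003 for CLAMP and 1.326 for H4K16ac. These values were used within a list only.

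Lines with the same start and end were 1 region, with the highest fold and q of its summits (12393 CLAMP lines gave 10435 regions). Overlap needed 1 bp, and coordinates are 1-based. Groups came from the labels' sex, stage and antibody. No test was run, since each group had 1 list; replicates beyond the listed ones, IgG and input samples were not analysed here. Chromosomes 4, Y and M were left out of the classes. Gene positions came from a RefSeq table of the same release (17872 genes). It has no strand, so either gene end replaced the planned gene start. An arm was taken to end where its last annotated gene does (X at 23.5 Mb, the 4 autosome arms at 108.8 Mb in all). No genome sequence was used here.

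Region names follow a rule: the 4 regions of highest fold per class, the 4 of highest fold and 2 widest H4K16ac regions without CLAMP, and of each gene list the 4 of highest CLAMP fold, or all of up to 8 genes; 1 region that the rule names is not reported here. The members, lists and rule were chosen with earlier results of these data known. Lists were matched by symbol: run, opa, Clamp and arm stand in 2 lists each, calypso found no match, and ci, pho, bt, 1 cytoplasmic ribosomal protein gene and 4 microRNA genes are not on the arms counted. Scripts ran in Python 3.11.15 with pandas 2.3.3 and scipy 1.17.1, and the classification was tested on simulated regions. Alternatives changed thresholds, overlap, distance, list length, arm ends, summit value and gene flank.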

Additional observations from a re-analysis of the deposited data

Results flagged for a closer look

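Regions outside the chromosomes compared above held signal. Chromosome 4, a small and mostly heterochromatic autosome, had 159 CLAMP regions, of which 74.2% (118) were inside H4K16ac, and 158 H4K16ac regions, of which 41.8% held no CLAMP region. The mitochondrial genome had 8 CLAMP regions. No list of control samples was at hand to set these against.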

How the results depend on the processing

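No paired analysis was possible because each sex, stage and antibody had 1 list, which also left no replicate to leave out. Of 82 recomputed values 42 left the 95% interval of the main value and 40 did not. With H4K16ac regions of −log10 q of at least 5, the inside share was 38.9% on X and 46.5% on autosomes, the far share 57.3% on X and 50.9% on autosomes, the share of H4K16ac without CLAMP 12.4% on X and 11.2% on autosomes, and the median inside fold on the autosome arms 4.51. With CLAMP regions of −log10 q of at least 5, that median was 4.45 and the autosomal share without CLAMP 35.9%. With 50% of the CLAMP region covered, the inside share was 40.4% on X and 49.7% on autosomes and the share without CLAMP 45.4% on X and 44.4% on autosomes. With the summit in H4K16ac these were 38.4% on X and 46.7% on autosomes, and 47.9% on X and 47.6% on autosomes. With the 3000 strongest CLAMP regions, the inside share was 60.7% on X and 66.0% on autosomes, the far share 34.3% on X and 29.7% on autosomes, the inside fold 7.49 on X and 7.25 on autosomes, the far fold 8.13 on X and 8.14 on autosomes, and the share without CLAMP 71.6% on X and 76.1% on autosomes. A near distance of 500 bp gave 46.2% on X and 36.1% on autosomes for far, and 2000 bp 37.1% on X and 29.1% on autosomes. The mean over summits gave an inside fold of 4.34 on X and 4.11 on autosomes. With no CLAMP within 1000 bp, H4K16ac without CLAMP was 29.2% on X and 29.1% on autosomes. With gene bodies alone, genes with both were 50.4% on X and 44.4% on autosomes, neither 30.7% on X and 40.3% on autosomes, H4K16ac alone 10.7% on X and 9.56% on autosomes, and CLAMP alone 8.15% on X. The inside share, X minus autosome arms, stayed between -10.6 and -5.32 points under all of these. The inside over far ratio of medians was above 1 in all but the 3000 strongest, where it was 0.922 on X and 0.890 on autosomes. X minus autosome arms in H4K16ac without CLAMP changed sign between alternatives (-4.48 to 1.21 points, -0.329 as reported). Arm ends moved no value out of its interval. Unknown depth limits all shares, and a far region is one with no listed H4K16ac at this threshold. The causes were not tested.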

Other observations

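A few regions had a fold enrichment below 1 and yet a high −log10 q. There were 2 such CLAMP and 5 such H4K16ac regions. H4K16ac regions on 2L and on X shared a fold of 0.606 and a −log10 q of 22.4, and a CLAMP region on 3R had a fold of 0.880 with a −log10 q of 220.3. They did not enter the named regions.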
